A study of Mus musculus with 2 samples.

Results

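The nuclear genes for subunits of the respiratory chain complexes were examined at their promoters in DNase-seq data of mouse kidney, an assay that reads out by sequencing where the enzyme DNase I can reach and cut the DNA in nuclei. Members were the protein-coding genes of GENCODE M21 on chromosomes 1 to 19 whose symbols name a subunit of complex I (Ndufa, Ndufb, Ndufc, Ndufs and Ndufv), II (Sdha to Sdhd), III (Uqcr genes and Cyc1), IV (Cox4 to Cox8 with their isoform letters and numbers) or V (Atp5 genes). The rule gave 78 genes among 20780, namely 34 of complex I, 4 of complex II, 9 of complex III, 14 of complex IV and 17 of complex V. Ndufa4, placed in complex I by its symbol, is now counted with complex IV, and Atp5s, matched by its symbol, codes for a coupling factor and not for a stoichiometric subunit. Cox4i1 and Cox4i2 have symbols outside the rule and were described beside it. Both libraries were labelled as kidney tissue of strain B6CASTF1/J, female, aged 36 days, with no treatment named. B6CASTF1/J is the first-generation hybrid of C57BL/6J and CAST/EiJ. The libraries form 1 group of 2 numbered replicates, so there was no condition to compare and no test between groups. The females are numbered separately but share a donor entry, so whether they are separate animals is not settled.

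The respiratory chain lies in the inner mitochondrial membrane. Complexes I and II pass electrons from NADH and succinate to ubiquinone, complex III passes them to cytochrome c, complex IV reduces oxygen, and complexes I, III and IV pump the protons whose return through complex V, the ATP synthase, drives ATP synthesis. Complex II and most subunits of the others are encoded in the nucleus, while a few hydrophobic core subunits of complexes I, III, IV and V are encoded by mitochondrial DNA, which was not analysed here. The kidney, and its proximal tubule in particular, is rich in mitochondria because sodium reabsorption consumes much ATP. Several small subunits of complex IV exist as a ubiquitous form and a form restricted to striated muscle, brown fat, lung or testis.

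A gene was called open in a library when a peak of the authors' stricter set overlapped the 1 kb on either side of any of its annotated transcript starts, and its height was that of its highest such peak, in the authors' signal units. Both libraries had a peak at 74 of the 78 members (94.9%), where 62.2% of all 20780 genes were open in both, 68.4% in replicate 1 and 62.3% in replicate 2. Requiring the peaks of the libraries to overlap left the same count of 74 members, beside 62.1% of all genes. No member was open in 1 library alone, although 1293 genes in all were open in replicate 1 only and 36 in replicate 2 only. All 34 members of complex I, 4 of complex II, 9 of complex III and 17 of complex V were open, against 10 of the 14 of complex IV. The 4 closed members were Cox6a2, Cox7b2, Cox8b and Cox8c, each the tissue-restricted form of a complex IV subunit. Apart from the 6 restricted forms in the set, 72 of 72 members were open.

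The promoter sequences of 3 isoform pairs of complex IV are shown here. In each pair the first gene is the ubiquitous form and the second the restricted one. Each line gives the 130 bases just before the start of the gene's main transcript, 5′ to 3′ on the strand of the gene, with CpG dinucleotides in capitals. The sequence is that of the mm10 (GRCm38) reference, which is C57BL/6J; the CAST/EiJ allele of these hybrids was not examined.
Cox7a2 (chr9:79759879-79760008, minus strand): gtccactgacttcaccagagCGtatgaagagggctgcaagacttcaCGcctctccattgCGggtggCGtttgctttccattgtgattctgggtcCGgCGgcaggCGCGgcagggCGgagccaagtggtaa
Cox7a1 (chr7:30184014-30184143, plus strand): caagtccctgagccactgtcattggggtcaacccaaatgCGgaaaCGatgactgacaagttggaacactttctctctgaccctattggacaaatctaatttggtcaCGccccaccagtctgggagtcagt
Cox8a (chr19:7217617-7217746, minus strand): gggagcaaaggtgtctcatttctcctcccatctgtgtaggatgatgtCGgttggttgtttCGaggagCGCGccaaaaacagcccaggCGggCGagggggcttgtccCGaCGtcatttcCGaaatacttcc
Cox8b (chr7:140900447-140900576, minus strand): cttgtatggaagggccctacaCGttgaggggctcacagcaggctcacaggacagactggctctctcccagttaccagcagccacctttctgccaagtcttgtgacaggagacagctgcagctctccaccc
Cox6a1 (chr5:115348982-115349111, minus strand): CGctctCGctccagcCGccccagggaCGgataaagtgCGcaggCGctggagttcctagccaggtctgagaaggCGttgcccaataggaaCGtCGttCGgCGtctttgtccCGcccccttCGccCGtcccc
Cox6a2 (chr7:128206388-128206517, minus strand): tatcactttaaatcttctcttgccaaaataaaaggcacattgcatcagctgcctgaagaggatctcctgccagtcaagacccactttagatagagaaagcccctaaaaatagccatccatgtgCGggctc
The ubiquitous forms held 9 CpG in Cox7a2, 9 in Cox8a and 14 in Cox6a1, and the restricted forms 3 in Cox7a1, 1 in Cox8b and 1 in Cox6a2. Of these 3 restricted forms Cox7a1, with the most CpG in the 130 bases, was open and Cox8b and Cox6a2 were closed. Over 500 bp on either side of the main start, the observed over expected CpG ratio was 0.277 in Cox7a1. It was 0.245 in Cox8b and 0.261 in Cox6a2, and higher in the closed Cox8c (0.464) and Cox7b2 (0.468), which are not shown. Whether CpG content sets which restricted form is open was not tested.

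Complex I had a median highest peak of 12.0 in replicate 1 and 7.73 in replicate 2, where the medians over all open genes were 8.40 and 5.46. The unit of the heights is not given, so they were also ranked as percentiles among the open genes of the same library. Of the 34 members, 15 in replicate 1 and 13 in replicate 2 lay above the 75th percentile. Ndufv3, a small subunit of the flavoprotein part that takes up NADH, reached 30.8 and 21.5, which was the 99.0th and 95.7th percentile. Ndufv1, which carries the flavin and the NADH site, reached 23.7 and 19.5. Ndufa13, an accessory subunit also known as GRIM-19, had 18.1 and 16.9, but its peak lay 763 and 773 bp from its own start, nearer a start of Yjefn3 at 609 and 619 bp.

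Among the genes of the catalytic core, which is shared with the bacterial enzyme, Ndufs1, the largest and a carrier of iron-sulfur clusters, had 18.9 and 15.4. Ndufs8, an iron-sulfur subunit, had 14.7 and 15.8, and Ndufs7, the iron-sulfur subunit next to the quinone site, had 9.08 and 7.70. Ndufv2 had 9.16 and 5.53 and Ndufs3 had 6.47 and 5.27, so these core genes were spread over much of the range of the complex. At the low end, Ndufc2, an accessory subunit of the membrane arm, had 2.66 and 1.83 (the 21.3rd and 17.2nd percentile), the lowest of all open members in both libraries. Ndufa10, next lowest by mean percentile, had 6.52 and 4.28.

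All 4 genes of complex II, the succinate dehydrogenase that is also an enzyme of the citric acid cycle, were open. Sdhb, the iron-sulfur subunit, had the highest peak at 21.3 in replicate 1 and 18.98 in replicate 2. The membrane anchors Sdhd and Sdhc followed with 13.5 and 9.56, and with 11.02 and 8.35. Sdha, the flavoprotein that binds succinate, had the lowest, 9.63 and 6.09. The order of the 4 genes was the same in both libraries.

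Complex III had medians of 9.67 and 6.11. Its highest peak was at Uqcrq, a small subunit that binds cytochrome b, with 32.7 and 31.0, the highest value of any member in both libraries (99.3rd and 99.2nd percentile). The middle of that peak lay 170 and 250 bp from the nearest start of Uqcrq and 22 and 58 bp from a start of Gdf9, an oocyte growth factor on the opposite strand. Uqcrfs1, the Rieske iron-sulfur protein, had 14.9 and 11.9, and Uqcrh, the hinge protein at the cytochrome c1 site, had 10.003 and 9.62. These values of Uqcrh belong to different peaks. That of replicate 1 lay on the main start, and that of replicate 2 lay 360 bp before it, 32 bp from a start of Lrrc41. The peak on the main start of Uqcrh had 7.85 in replicate 2. Cyc1, which codes for cytochrome c1, had 6.46 and 4.04. Uqcrc2, a core protein of the complex, was lowest with 5.43 and 3.76, and its partner Uqcrc1 had 10.9 and 6.11. In both libraries Uqcrfs1 stood above Cyc1, the other nuclear redox subunit, and Uqcrc1 above Uqcrc2.

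The 10 open members of complex IV had medians of 9.83 and 6.94. Cox8a had 18.99 and 17.7, Cox5b had 17.2 and 12.7 and Cox6a1 had 18.03 and 11.2. These are small nuclear subunits that surround the mitochondrially encoded catalytic core. The lowest were both forms of subunit VIb, with 6.26 and 4.26 at Cox6b1 and 4.24 and 2.77 at Cox6b2.

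Complex V had the highest medians, 12.7 and 10.2. Atp5g1, 1 of 3 genes that code for the same subunit c of the rotor ring, had 26.2 and 30.5, and Atp5b, the catalytic beta subunit, had 25.1 and 16.3. Atp5e, the epsilon subunit of the central stalk, had 17.0 and 14.1. The alpha subunit gene Atp5a1, whose product alternates with beta in the same hexamer, had 6.88 and 4.29, the lowest mean percentile of the complex, and Atp5l, subunit g of the membrane part, had 6.86 and 4.62. The alpha and beta genes, whose products stand in equal number in the enzyme, had peaks of unequal height in both libraries. The middle of the Atp5a1 peak lay 232 and 242 bp after its main start, on another start of the gene. On the main start Atp5a1 had a peak of 3.65 in replicate 1 and none in replicate 2. The Atp5b peak covered its main start in replicate 1 only, and its middle lay 182 bp before that start in replicate 2.

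**Figure D1:**
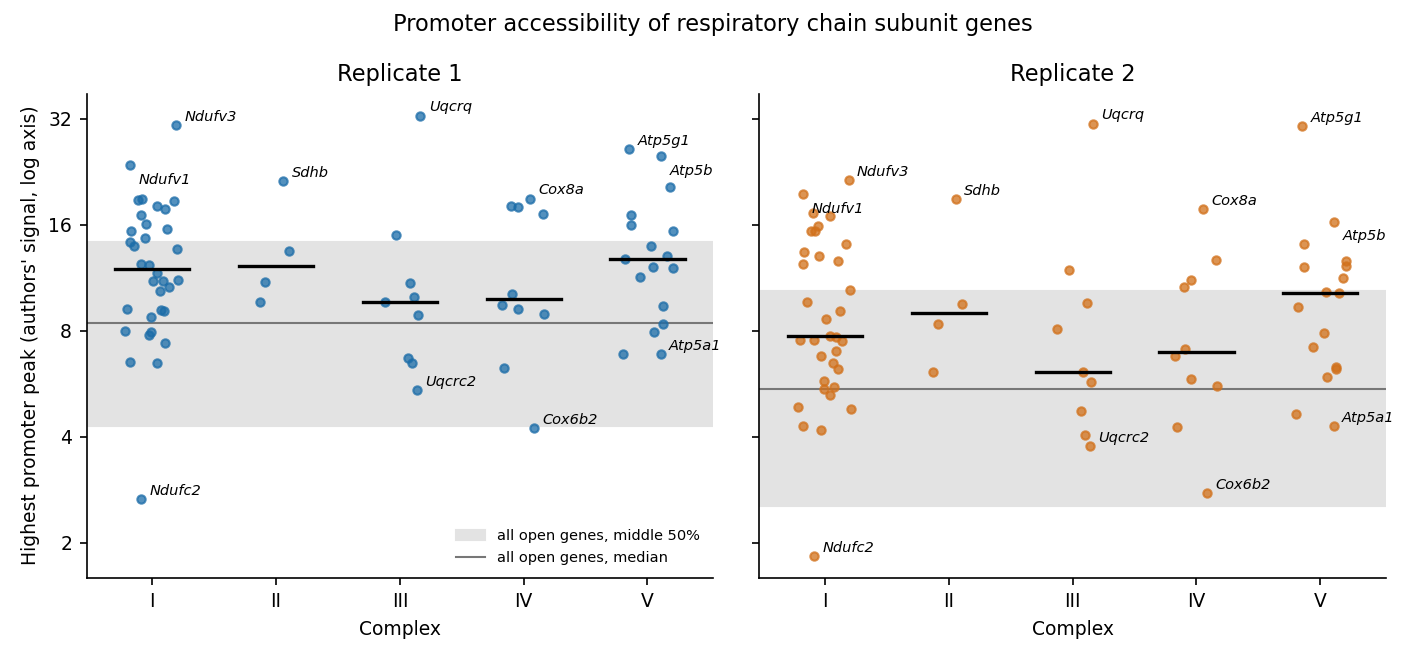
Each point is 1 open member, placed by complex on the horizontal axis and by the authors' signal at its highest promoter peak on a logarithmic vertical axis, with replicate 1 on the left and replicate 2 on the right. Black bars are medians of the members, the grey line and band are the median and middle 50% of all open genes, and Uqcrq, Ndufv3 and Atp5g1 stand at the top and Ndufc2 at the bottom in both libraries.

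Over all open members the height ran from 2.66 to 32.7 with a median of 11.5 in replicate 1, and from 1.83 to 31.0 with a median of 7.997 in replicate 2. In percentiles the medians were 68.0 and 65.5, beside 54.5 and 50.1 for all genes open in both libraries. At or above the 50th percentile stood 63 and 61 of the 74 open members, and 1 member, Ndufc2, stood below the 25th in each library. The tissue was checked against markers of kidney cells, and promoter peaks were present at 5 of 5 proximal tubule genes in both libraries, at 2 of 3 of the thick ascending limb and at 3 of 3 of endothelium. Of 3 podocyte genes, 3 had a peak in replicate 1 and 1 in replicate 2, and of 3 hepatocyte genes Apoa2 had one in both. Since the libraries are of whole tissue, a peak in fewer cells and a weaker peak in each cell cannot be told apart.

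The highest peaks of the libraries overlapped at 73 of the 74 open members, and the median log2 ratio of replicate 2 over replicate 1 was -0.50 for members and -0.56 for all open genes. Higher in replicate 2 were 4 members, Atp5g1 with a log2 ratio of 0.22, Ndufs8 with 0.11, and Ndufb5 and Atp5j with 0.02 each. That was 5.41% of the open members, beside 3.91% of all open genes. The log2 ratio farthest from 0 was -1.22 at Ndufc1, an accessory subunit of complex I, with 11.1 and 4.79.

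Isoforms were compared over 7 ubiquitous genes and 9 restricted ones, including pairs outside the symbol rule. All 7 ubiquitous forms were open in both libraries and 2 of the 9 restricted forms (22.2%) were, beside 62.2% of all genes. None of the 9 restricted forms had a CpG island-like promoter, as defined below, and 36.8% of all genes without one were open. Of the ubiquitous forms 85.7% had one, and 90.4% of all island-like genes were open. Cox6a1 had 18.03 and 11.2 while Cox6a2, the form of heart and skeletal muscle, had no peak. Cox8a had 18.99 and 17.7 while Cox8b, of striated muscle and brown fat, and Cox8c, of testis, had none. Cycs, which codes for somatic cytochrome c, had 24.8 and 20.5 and Cyct, the testis form, had none. Cox4i1 had 9.38 and 4.84 and Cox4i2, known from lung, had none. Ndufa4 had 8.78 and 5.77 and Ndufa4l2, known for its induction in hypoxia, had none. Cox7b2, of testis, was also closed, and its ubiquitous partner Cox7b is on the X chromosome.

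Across the same 1 kb windows, the authors' deposited lists of positions at a false discovery rate under 0.05 held no base for Cox7b2, Cox8b, Cox8c, Cox4i2 and Cyct in either library. For Ndufa4l2 they held 37 bases in replicate 1, with a lowest rate of 0.0266, and none in replicate 2. For Cox6a2 they held 201 bases in replicate 1, with a lowest rate of 0.000512 and a peak of 0.362 in the wider peak set, and none in replicate 2. The nearest peak of the stricter set lay 1994 bp from the start of Cox6a2 in replicate 1 and 2013 bp in replicate 2, and 3031 and 3103 bp from that of Cox8b. Widening the promoter window to 2500 bp brought Cox6a2 and Ndufa4l2 in, and 4 of 9 restricted forms were then open.

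The open restricted forms were Cox7a1, of heart, skeletal muscle and brown fat, with 8.90 and 5.57, and Cox6b2, of testis, with 4.24 and 2.77. Their peaks lay on their own starts, with middles 3 and 13 bp from the start of Cox7a1 and 27 and 37 bp from that of Cox6b2. No other gene's start was near, as the nearest belonged to Capns1 at 6085 bp and to Kmt5c at 7313 bp in replicate 1. The lowest false discovery rates there were 1.88e-70 and 4.54e-46 for Cox7a1 and 2.01e-45 and 4.31e-22 for Cox6b2. The Cox7a1 peak stood at the 56.7th and 50.9th percentile, below that of its ubiquitous partner Cox7a2 at 18.1 and 10.7. Cox6b2 stood below Cox6b1 in both libraries.

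Markers of the tissues that these isoforms are named for were looked up in the same way. Of 4 heart genes (Myh6, Nppa, Tnnt2 and Myl7) and 4 male germ cell genes (Prm1, Tnp1, Ldhc and Pgk2) none was open in either library. Of 6 skeletal muscle genes, Acta1, Myh1 and Myh2 were closed, and Ckm, Mylpf and Actn3 were open. The peaks of Ckm (4.97 and 2.90) and Actn3 (10.5 and 8.69) were nearer a start of Klc3 and of Zdhhc24 in replicate 1, while that of Mylpf (16.8 and 17.8) was nearer its own. Of 4 fat genes, Ucp1 and Adipoq were closed, and Cidea had 1.04 and 0.805 and Plin1 1.65 and 0.886. The part of such cells in the Cox7a1 and Cox6b2 peaks was not tested.

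The 3 subunit c genes, which code for the same mature protein behind different targeting peptides, were all open but at unequal heights. Atp5g1 had 26.2 and 30.5, Atp5g2 had 15.3 and 12.6, and Atp5g3 had 7.92 and 5.90. The order was the same in both libraries, and the lowest value of each gene was above the highest of the next. The middle of the Atp5g1 peak lay 171 and 231 bp before its main start, and the peak covered no start of the gene. Those of Atp5g2 and Atp5g3 covered their main starts.

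**Figure D2:**
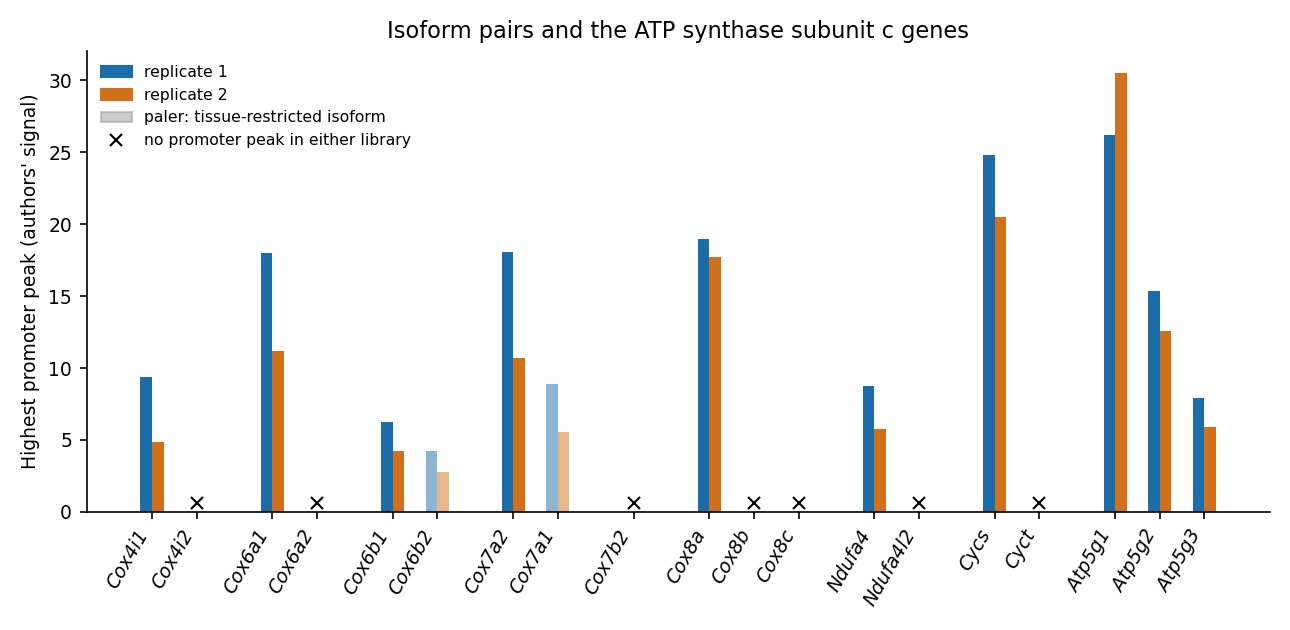
Bars give the authors' signal at the highest promoter peak of each gene, in blue for replicate 1 and orange for replicate 2, with tissue-restricted forms paler and crosses where neither library had a promoter peak. Crosses stand at 7 of the 9 restricted forms, the exceptions being Cox6b2 and Cox7a1, and the subunit c genes descend from Atp5g1 to Atp5g3.

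CpG content separated the closed members from most of the others. A promoter was called CpG island-like when the 500 bp on either side of the main start had an observed over expected CpG ratio of at least 0.6 and at least 50% G and C. This held for 59 of the 78 members (75.6%) and for 47.3% of all genes. All 59 such members were open, and 90.4% of all island-like genes were. Of the 19 other members 15 were open, and 13 of 13 once the restricted forms were left out, while 36.8% of all genes without an island-like promoter were open. These sets differ in CpG content. The median ratio was 0.578 for the 13 members and 0.241 for all genes without an island-like promoter. Some of the 13 missed only the GC limit, such as Ndufs7 with a ratio of 0.957 and 48.9% G and C. The 4 closed members had ratios of 0.245 (Cox8b), 0.261 (Cox6a2), 0.464 (Cox8c) and 0.468 (Cox7b2). The ratio is taken around the main start, while a peak at any start made a gene open. A peak covered the main start itself in both libraries at 50 of the 59 island-like members and at 7 of the 13 others that are not restricted forms. Atp5j2, subunit f of the ATP synthase, had the lowest ratio, 0.219, but its peaks of 8.35 and 6.24 lay 481 and 491 bp after that start, on another start of the gene. Cox7a1, with a ratio of 0.277, had its peak on the main start.

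**Figure D3:**
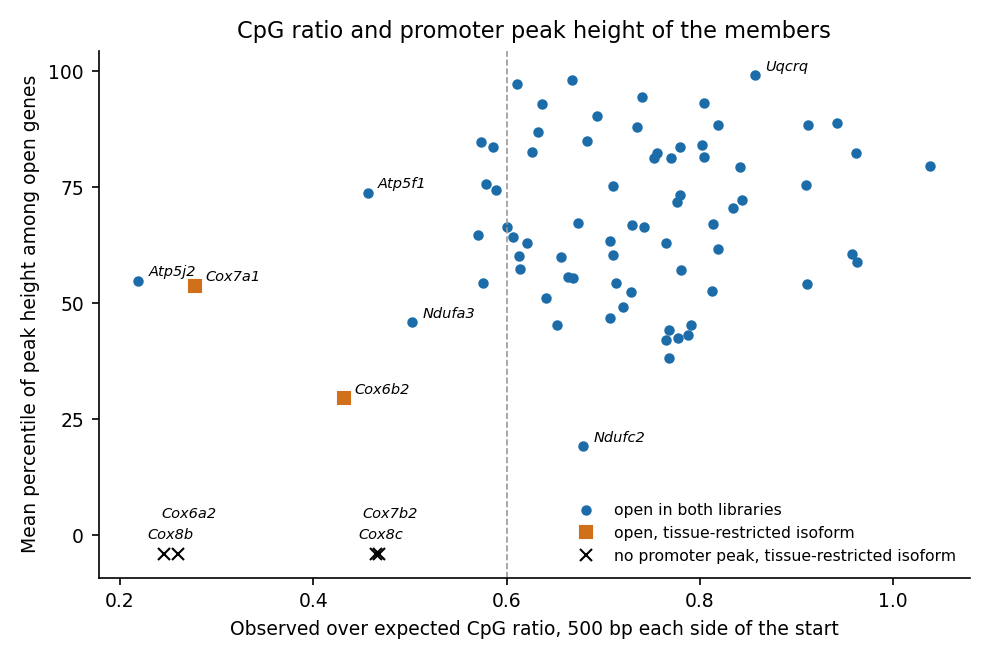
Each member is placed by its CpG ratio on the horizontal axis and by the mean over the libraries of its peak height percentile among open genes on the vertical axis, with closed members drawn as crosses below 0. The dashed line marks the ratio of 0.6, and the 4 crosses lie left of it. Open on the same side are Atp5j2, Cox7a1, Cox6b2, Atp5f1 and Ndufa3, which are labelled. Nearer the line, Ndufa5, Ndufs8, Ndufs5, Uqcr11, Atp5d and Ndufb10 are open too. The ratio was taken around the main start, which the highest peaks of Atp5j2, Atp5f1, Ndufa5 and Atp5d do not cover. That of Ndufs8 does not cover it in replicate 1.

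Many members share their promoter region with a gene on the opposite strand. A start of another protein-coding gene on the opposite strand lay within 1 kb of the main start of 28 members (35.9%), against 11.1% of all genes, and 22 members (28.2%) had it upstream, against 9.398%. The backgrounds were higher among comparable genes. Among CpG island-like genes the shares were 40.7% of members and 19.1% of all, and upstream 32.2% and 16.5%. Among genes at or above the median height in both libraries they were 38.3% and 24.2%, and upstream 30% and 21.6%. By complex the 28 were 14 of complex I, 3 of complex II, 4 of complex III and 7 of complex V, and none of complex IV. The distance was 3 bp between Ndufs1 and Eef1b2, an elongation factor gene, 10 bp between Ndufa7 and the ribosomal protein gene Rps28, and 98 bp between Sdhd and Timm8b, whose product is a chaperone of the mitochondrial intermembrane space. Further neighbours were the mitochondrial ribosomal protein genes Mrpl36 at 29 bp from Ndufs6 and Mrpl47 at 157 bp from Ndufb5. Atp5j, the coupling factor F6 gene, lies opposite Gabpa, whose product is an ETS family factor that regulates mitochondrial genes, and the 2 genes were given the same peak of 12.1 and 12.2.

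Members with an upstream neighbour had median heights of 13.7 and 9.63, and the 52 other open members 11.1 and 7.49. A shared peak cannot be assigned to either gene, and the middle of the highest peak was nearer a start of another gene at 10 members in replicate 1 and 13 in replicate 2. When a peak was counted only for the gene with the nearest start, 66 of the 78 members were open in both libraries, beside 58% of all genes. The 8 members lost were Atp5f1, Ndufa2, Ndufa13, Ndufb3, Ndufs3, Ndufs6, Sdhd and Uqcrq, and all isoform calls stayed as they were. Ndufa13 was also lost when the window was 500 bp.

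Footprints, the small gaps in DNase I cutting that a bound protein can leave, were called by the authors in each library, and those that overlapped by at least 50% of the shorter were taken as shared. Every open member held at least 1 shared footprint in its promoter windows, and 563 of all open genes (4.36%) held none. The median was 4.5 shared footprints with a range of 1 to 13, beside a median of 4 for all open genes, and 8 per member in replicate 1 and 6 in replicate 2, the same medians as for all open genes. Atp5j held 13, and Ndufs7, Ndufa7, Uqcrq and Atp5d held 10 each. Of the 13 of Atp5j, those nearest its main start spanned bases 38 to 56 after it and 40 to 28 before it, and the 8 farthest downstream lay 501 to 851 bases after it, on the side of Gabpa. The footprints of the promoter windows, inside or outside peaks, were also divided by the kb of promoter peak of the gene. The medians were 24.5 and 23.0 for members, beside 19.6 and 18.8 for all open genes. Among genes at or above the median height in both libraries they were 26.2 and 23.4 for members, beside 22.7 and 22.2.

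The shared footprints were then placed along the promoter. In bins of 10 bp around the main start, the share of open members with a shared footprint reached 54.1% in the bin beginning 30 bp before the start, was 35.1% in the bin at 20 bp after it and reached 50% again at 50 bp after it. Among all 12856 open genes with a main start the shares in the same bins were 36.5%, 25.1% and 19.6%, with no second maximum after the start. The highest peak covered the main start in 78.4% and 74.3% of open members, against 56.1% and 55.9% of open genes. The profile was repeated over genes whose highest peak covered the main start in both libraries. There the share at 30 bp before the start was 63.0% of 54 members and 52.3% of 6667 genes, and at 50 bp after it 53.7% of members and 30.3% of genes. The 49 open assembly factor genes were taken wherever their highest peak lay, and had 57.1% and 34.7% in these bins. Without that condition the shares were 54.1% and 50% of open members and 36.5% and 19.6% of open genes. The assembly factor genes had a low of 18.4% in the bin at 30 bp after the start, so they too had a second maximum.

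**Figure D4:**
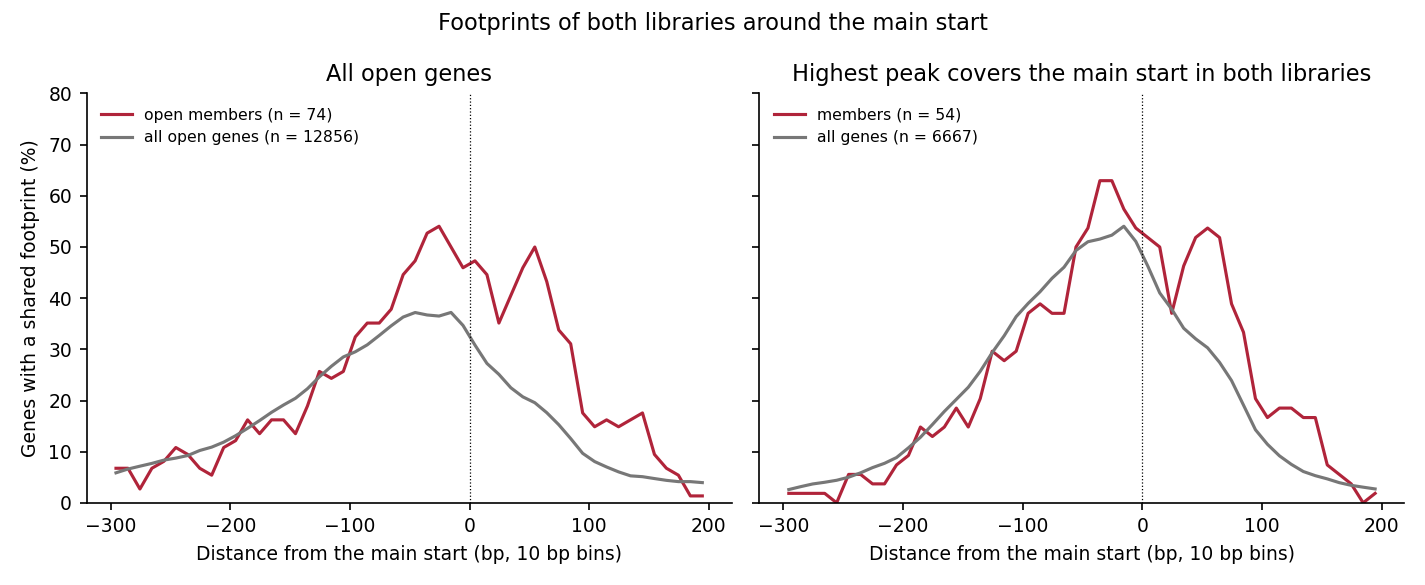
The percentage of genes with a footprint of both libraries is plotted against distance from the main start in 10 bp bins, for members in red and all genes in grey, over all open genes on the left and over genes whose highest peak covers the start on the right. The members show a second maximum near 50 bp after the start in both panels, and the grey curves decline there.

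Consensus letters of 8 factors were searched on both strands from 250 bases before to 50 bases after the main start, and a match was called footprinted when it lay wholly inside a footprint of each library. A match is only a description of the letters. The factors were NRF1 (CGCATGCG), ETS (CCGGAAG), YY1 (AAGATGGC), SP/KLF (GGGCGG), CREB (TGACGTCA), NF-Y (CCAAT), ERR (TCAAGGTCA) and HNF4 (CAAAGTCCA). NRF1, the ETS factor GABP, YY1 and ERR are textbook regulators of nuclear genes for mitochondrial proteins.

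NRF1 letters stood in 6 of the 74 open members (8.11%), against 3.56% of all open genes, and were footprinted in 5 (6.76%), against 2.83%. The 5 were Atp5g2, Atp5l, Cox6a1, Ndufa11 and Uqcr11, from 4 complexes. The letters of 4 of them are shown in 30 bases of mm10 on the strand of the gene, with the match in capitals.
Ndufa11 (chr17:56717692-56717721, plus strand): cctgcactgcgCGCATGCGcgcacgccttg
Cox6a1 (chr5:115349101-115349130, minus strand): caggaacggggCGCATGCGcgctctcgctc
Atp5g2 (chr15:102671070-102671099, minus strand): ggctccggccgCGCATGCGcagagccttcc
Uqcr11 (chr10:80406808-80406837, minus strand): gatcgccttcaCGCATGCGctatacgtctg
The first base of the match lay 64 bases before the main start in Ndufa11, 138 before it in Cox6a1, 39 after it in Atp5g2 and 4 after it in Uqcr11. With the other letters GCGCANGCG, 17 open members had a match (23.0%, against 12.9% of all open genes) and 10 a footprinted one (13.5%, against 8.54%).

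ETS letters stood in 14 open members (18.9%), against 16.7% of all open genes, and were footprinted in 5 (6.76%), against 4.07%. The 5 were Cox8a, Ndufb9, Ndufs1, Ndufs8 and Uqcrh. Those of 4 are shown, again with the match in capitals on the strand of the gene.
Cox8a (chr19:7217566-7217595, minus strand): cagcgccggaaCTTCCGGctggttcggcca
Ndufs1 (chr1:63176820-63176849, minus strand): ggcctcggctaCTTCCGGcggaactgcagg
Ndufs8 (chr19:3912741-3912770, minus strand): ttaggctccgcCTTCCGGttgaaccgcatc
Uqcrh (chr4:116075062-116075091, minus strand): agtatgccgcaCTTCCGGccaggtcgccgg
All 4 read CTTCCGG on that strand, the reverse complement of the consensus. Of the 17 matches in open members 2 read CCGGAAG on the strand of the gene, against 1358 of 2623 in all open genes. Their median position was 1 base after the start, against 34 bases before it for all open genes. Among matches from 20 bases before the start onward, 11 of 12 in members (91.7%) were reversed, and 487 of 1059 in all open genes (46.0%).

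CREB letters, a palindrome, stood in 5 open members (6.76%), against 3.44% of all open genes, and were footprinted in 4 (5.41%), against 2.47%. These 4 are shown with the match in capitals.
Atp5d (chr10:80141381-80141410, plus strand): gggcagggtgaTGACGTCAtgaccgagagc
Uqcrfs1 (chr13:30545327-30545356, minus strand): cggcgtcgcgcTGACGTCAcaaaccctgcg
Ndufb2 (chr6:39592540-39592569, plus strand): gtgcgacgcagTGACGTCAcgggccgggac
Ndufa10 (chr1:92473807-92473836, minus strand): acactcagtggTGACGTCAtggcagcgcgc
They belong to the delta subunit of the ATP synthase, the Rieske protein and 2 accessory subunits of complex I, whose peaks were 20.4 and 11.3 at Atp5d, 14.9 and 11.9 at Uqcrfs1, 11.7 and 7.75 at Ndufb2 and 6.52 and 4.28 at Ndufa10. The values of Atp5d belong to a peak 824 and 844 bp after the main start, and the peak on the main start, which holds the match, had 15.2 and 10.8. The matches lay between 65 bases before and 35 bases after the main start.

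YY1 letters stood in 7 open members (9.46%), against 4.31% of all open genes, and in none were they footprinted, against 0.49% of all open genes. The letters include ATG, and in 6 of the 7 members that ATG was an annotated start codon of the gene. The lines below show 2 of the 6, with the YY1 letters in capitals.
Ndufb8 (chr19:44555386-44555415, minus strand): cggagaaggtgAAGATGGCtgccgcccggg
Ndufa9 (chr6:126849097-126849126, minus strand): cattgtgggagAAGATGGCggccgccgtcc
A match on a start codon was present in 8.11% of open members and 1.15% of all open genes, and a match elsewhere in 1.35% and 3.19%. Sdhc of complex II was also among the 6. From 500 bases before to 500 after the start, 20 open members had YY1 letters (27.0%, against 9.45%), and 1, Atp5o, had a footprinted match. Of the 20, 13 had them on a start codon (17.6% of open members, against 2.78% of all open genes). A match elsewhere was present in 9.46%, against 6.81%, the reverse of the order in the shorter window. Whether the letters serve as a site or only as the beginning of the reading frame was not tested.

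ERR letters stood in 2 open members, Sdhd and Atp5g3 (2.70%, against 0.288% of all open genes), and lay in a footprint of both libraries in no open gene. They are shown because the sequence is rare in promoters of this length, with the match in capitals.
Sdhd (chr9:50603794-50603823, minus strand): ggttgtagagTGACCTTGAgccctcgaaag
Atp5g3 (chr2:73911359-73911388, minus strand): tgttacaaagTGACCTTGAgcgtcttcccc
From 500 bases before to 500 after the start the number was 8 (10.8%, against 1.54%), namely Atp5b, Atp5g3, Atp5o, Cox6c, Ndufa2, Ndufb4, Ndufv2 and Sdhd, and again none was footprinted. SP/KLF letters were in 30 open members (40.5%), against 62.8% of all open genes, and footprinted in 19 (25.7%), against 34.6%. NF-Y letters were in 28 (37.8%), against 38.1%, and footprinted in 6 (8.11%), against 5.93%. HNF4 letters, of a factor active in the proximal tubule, were in none, against 0.358% of all open genes, of which 0.0156% had them footprinted. Among the 8881 open genes with a CpG island-like promoter, letters stood in 4.53% for NRF1, 20.4% for ETS, 5.26% for YY1 and 4.05% for CREB. The shares were 0.180% for ERR, 73.8% for SP/KLF, 38.0% for NF-Y and 0.225% for HNF4. Beside these genes the ETS share of open members, 18.9%, was the lower one. For the other factors the order was unchanged. With 74 members these motif counts are small, and no test was applied to them.

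**Figure D5:**
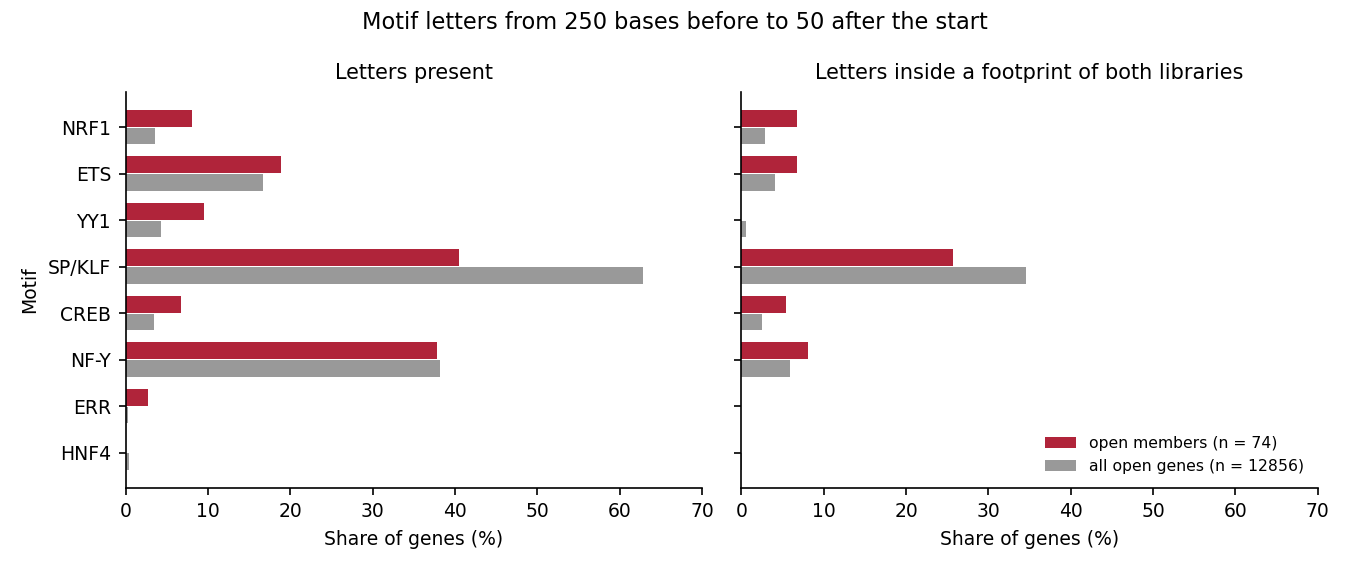
Bars give the share of open members (red) and of all open genes (grey) with the consensus letters of each factor in the 300 bases around the main start, present at all on the left and inside a footprint of both libraries on the right. On the left the red bars of NRF1, ETS, YY1, CREB and ERR are longer than the grey ones and those of SP/KLF, NF-Y and HNF4 shorter, and on the right the YY1 and ERR bars of the members are at 0.

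Genes that assemble or regulate the chain were mostly open as well. Of 50 assembly factors 49 (98%) were open in both libraries, with medians of 12.0 and 8.34. Beside them, 62.2% of all genes and 90.4% of all CpG island-like genes were open in both. Of the assembly factors 84% were island-like, against 47.3% of all genes. The closed one was Sdhaf1, which helps to insert the iron-sulfur clusters of complex II, and whose window of 2500 bp did hold a peak in both. The highest of each list included Cox18, which inserts a complex IV subunit into the membrane, with 25.9 and 25.8, Tmem126b of complex I assembly with 21.8 and 19.3, and Bcs1l, which loads the Rieske protein into complex III, with 21.5 and 21.6. Atpaf1, a chaperone of the F1 beta subunit, was the lowest open one with 1.66 and 1.27, and was lost when only the stronger 50% of peaks were kept.

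All 15 regulators were open, beside 62.2% of all genes and 90.4% of all CpG island-like genes, and 86.7% of the regulators were island-like. Esrra, which codes for the nuclear receptor ERR alpha, had 38.0 and 34.6, above every member in both libraries. The mitochondrial transcription factor genes Tfb1m and Tfb2m had 27.8 and 20.2, and 20.4 and 19.2. Nrf1 had 6.38 and 4.42, and Ppargc1a, the coactivator PGC-1 alpha, 5.21 and 3.35. The last list held 9 genes, namely other electron carriers, supercomplex proteins and the subunit genes Cox4i1 and Ndufab1, the latter of complex I, whose symbols are outside the rule. All 9 were open, and 88.9% of the 9 were island-like. They were led by Cycs with 24.8 and 20.5, Etfdh, the ubiquinone oxidoreductase of fatty acid oxidation, with 19.3 and 21.4, and Higd2a with 23.6 and 14.3.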

How the data were processed

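DNase-seq peaks, false discovery rates and footprints of 2 kidney libraries were used as deposited. Per the deposited description, the authors made each file separately per library from a filtered alignment to mm10; its aligner and its peak caller are both not given in the sources used, and sequencing depth is unknown. Peak height is the signal column of the deposited peak files, and 100% of heights were whole multiples (within 0.02) of 1 step per library, so 1 scaling factor had been applied to each library. The deposited false discovery rates, a q-value per interval, are below 0.05, and footprints carry the threshold 0.01 in every row. Replicate 1 had 124504 peaks and 375848 footprints, and replicate 2 had 68056 and 223827; of the footprints 127027 were shared. The females are numbered separately in the labels but share a donor entry, so that only the replicate numbers speak for separate animals.

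Peaks of the set with fewer rows were matched to starts in GENCODE M21 (GRCm38.p6), with sequences from the same genome. The main start was that of the best-ranked protein-coding transcript (APPRIS, then CCDS, then length). Named genes were the members without a peak, the 3 highest and 2 lowest of each complex by mean percentile, all isoforms, the 5 with most footprints, those with a footprinted NRF1, ETS, YY1, CREB or ERR match, and the 3 highest of each pathway list, of which some are described; others, such as further core genes of complex I, were added after their values were seen. Another result is not reported here. The members and lists were chosen with earlier results of these data known. Alternatives were other windows, peak sets, overlap rules, motif letters and each replicate left out. Python 3.11.15, numpy 2.4.6 and pandas 2.3.3 were used, and the steps were tested on simulated data. With 1 group there was no test.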

Additional observations from a re-analysis of the deposited data

How the results depend on the processing

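The counts of open members, by complex and in all, of open ubiquitous isoforms and of open assembly factors and regulators, and the median height, moved by less than 1.5 times or less than the spread between the libraries under each alternative run; the number of open members ran from 66 (nearest start only) to 75 (window of 2500 bp). The exceptions follow. With the window of 2500 bp the open restricted isoforms were 4 in place of 2. The median number of promoter footprints was 4.5 when shared, 6 to 8 with 1 replicate left out, and 0 when shared footprints had to be identical. Shares in brackets are of open members, against those of all open genes. From 500 bases before to 500 after the start, 10 had letters of NRF1 (13.5%, against 5.06%) and 25 of ETS (33.8%, against 28.0%). Those of YY1 were in 20 (27.0%, against 9.45%), of SP/KLF in 53 (71.6%, against 82.2%) and of ERR in 8 (10.8%, against 1.54%). Footprinted ones were 8 for NRF1 (10.8%, against 3.67%) and 1 for YY1 (1.35%, against 0.739%). The letters GCGCANGCG gave 17 members (23.0%, against 12.9%) and 10 footprinted ones (13.5%, against 8.54%). With any overlap of 1 base counted as footprinted, YY1 had 2 (2.703%, against 1.602%) and NF-Y 10 (13.5%, against 11.7%). A wider window or looser overlap admits more matches by construction; for the letters GCGCANGCG, which do not include all matches of CGCATGCG, the cause was not tested. No paired analysis was possible because the series holds 1 group. Read depth is unknown, so a closed promoter means that no peak was called at the depth of these libraries.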

Other observations

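The rule left out 3 subunit genes on the X chromosome, and their values are given here. Ndufa1, an accessory subunit of complex I, had highest promoter peaks of 4.04 in replicate 1 and 2.78 in replicate 2. Ndufb11, another accessory subunit of complex I, had 5.30 and 5.59, with 4 shared footprints. Cox7b of complex IV, the ubiquitous partner of the closed Cox7b2, had 5.35 and 2.20. Each of the 3 lay below the median of the autosomal open members, 11.5 in replicate 1 and 7.997 in replicate 2. The cause was not tested.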
